A study of Mus musculus with 2 samples.

Results

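In mouse embryonic stem (ES) cells, 2552 TOBF1 peaks with a score below 40 lay in intergenic sequence more than 10 kb and up to 100 kb from the nearest protein-coding gene. They were chosen by the score, the chromosome and the distance of the peak midpoint from RefSeq gene ends, and made up 22.1% of the 11545 peaks on chromosomes 1 to 19 and part of a list of 12181 peaks. Score, distance and the lack of a protein-coding gene at the peak are therefore descriptions and not findings. Peaks came from ChIP-Seq, which recovers the DNA fragments that a protein is crosslinked to, in R1/E cells grown in FBS with LIF, a cytokine that maintains self-renewal. TOBF1, the product of A830080D01Rik (RefSeq symbol Bclaf3), was tagged in a bacterial artificial chromosome (BAC), crosslinked to DNA with DSG and formaldehyde, and precipitated with an anti-GFP antibody. An input library carried the same construct in the same cells, was made without antibody, and has no file used here. With 1 TOBF1 library there was no replicate error, no difference below was tested, and all intervals are exact 95% intervals that cover counting error only. Peaks of 1 group are not independent, so these intervals are too narrow where peaks lie close together. No expression values were used, so the ES cell identity was not checked, and neither a precipitation from untagged cells nor the depth of the library was known.

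Intergenic sequence at this range holds many enhancers, short stretches bound by transcription factors that can raise the activity of a promoter along the same chromosome. The gene nearest to such a stretch need not be the gene it acts on. In ES cells, enhancers of this kind near pluripotency genes are bound by factors such as Oct4, Sox2 and Klf4, and many of them are themselves transcribed or lie next to long non-coding RNA (lncRNA) genes.

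Some of the intergenic peaks lay at or near the start of an lncRNA gene, and these are the places where the DNA under a peak could be shown. Of the 2552 peaks, 17 overlapped the start windows of 17 lncRNA genes, out of 9291 lncRNA genes with such a window. A start window ran from 250 bases before to 50 bases after the start of the gene, in RefSeq sequence of the GRCm38.p6 assembly, whose positions are those of mm10. The 17 windows had a median GC content of 49.3% and a median of 5 CpG dinucleotides, against 48.3% and 4 in all 11311 lncRNA start windows. Of the windows printed, 5 were covered over at least 80% of their length, and those of Platr26 and Platr22 belong to lncRNA genes named as pluripotency-associated transcripts. Each window is written 5′ to 3′ on the strand of its gene, and capitals mark the bases covered by the peak.
Gm36555: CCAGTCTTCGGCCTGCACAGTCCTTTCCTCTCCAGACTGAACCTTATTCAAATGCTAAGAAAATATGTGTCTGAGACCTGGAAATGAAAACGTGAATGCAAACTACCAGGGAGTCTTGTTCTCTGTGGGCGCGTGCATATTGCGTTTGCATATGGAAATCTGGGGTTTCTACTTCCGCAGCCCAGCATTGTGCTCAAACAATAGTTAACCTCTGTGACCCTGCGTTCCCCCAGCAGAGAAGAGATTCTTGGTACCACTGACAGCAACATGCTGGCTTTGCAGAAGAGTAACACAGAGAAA
Gm33714: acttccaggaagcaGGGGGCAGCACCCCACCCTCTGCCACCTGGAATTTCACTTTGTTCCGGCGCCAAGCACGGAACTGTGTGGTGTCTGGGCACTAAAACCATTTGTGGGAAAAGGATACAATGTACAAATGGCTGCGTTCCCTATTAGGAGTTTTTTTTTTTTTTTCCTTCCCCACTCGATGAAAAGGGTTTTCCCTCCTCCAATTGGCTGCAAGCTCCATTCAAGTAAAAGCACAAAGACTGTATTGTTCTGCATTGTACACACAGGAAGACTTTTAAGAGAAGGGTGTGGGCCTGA
Gm10858: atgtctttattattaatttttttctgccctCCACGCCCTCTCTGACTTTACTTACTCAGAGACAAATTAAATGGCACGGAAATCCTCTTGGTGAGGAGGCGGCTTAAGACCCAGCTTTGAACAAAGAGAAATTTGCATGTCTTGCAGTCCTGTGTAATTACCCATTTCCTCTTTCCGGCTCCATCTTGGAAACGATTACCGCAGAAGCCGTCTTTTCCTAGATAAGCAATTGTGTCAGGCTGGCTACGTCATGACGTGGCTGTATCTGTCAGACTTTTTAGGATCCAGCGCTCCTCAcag
Gm33596: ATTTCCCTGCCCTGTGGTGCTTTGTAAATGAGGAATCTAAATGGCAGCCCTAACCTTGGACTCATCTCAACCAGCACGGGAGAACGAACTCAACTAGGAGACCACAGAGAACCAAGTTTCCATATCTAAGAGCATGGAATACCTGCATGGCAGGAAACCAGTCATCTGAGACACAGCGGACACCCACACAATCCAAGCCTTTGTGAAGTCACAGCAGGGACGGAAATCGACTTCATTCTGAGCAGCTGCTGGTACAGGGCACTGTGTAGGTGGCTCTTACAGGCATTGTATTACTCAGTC
Platr26: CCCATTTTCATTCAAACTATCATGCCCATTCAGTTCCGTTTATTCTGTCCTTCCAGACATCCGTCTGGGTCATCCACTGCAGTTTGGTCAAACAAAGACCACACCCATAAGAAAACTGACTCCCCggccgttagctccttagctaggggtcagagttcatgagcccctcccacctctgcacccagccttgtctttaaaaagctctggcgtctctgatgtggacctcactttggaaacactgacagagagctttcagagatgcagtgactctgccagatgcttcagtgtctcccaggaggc
Platr22: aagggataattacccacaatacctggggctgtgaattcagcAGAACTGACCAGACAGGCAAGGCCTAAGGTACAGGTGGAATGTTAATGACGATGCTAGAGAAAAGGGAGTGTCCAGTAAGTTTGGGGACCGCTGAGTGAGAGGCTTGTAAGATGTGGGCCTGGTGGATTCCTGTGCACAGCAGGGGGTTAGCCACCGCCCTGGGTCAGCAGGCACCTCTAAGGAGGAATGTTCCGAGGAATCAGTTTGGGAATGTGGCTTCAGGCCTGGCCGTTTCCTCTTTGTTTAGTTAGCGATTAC

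These windows lay far from protein-coding genes and were covered to different extents. Gm36555 (chr15:25332095-25332394, plus strand) was covered from base 1 to base 300 by a peak with a score of 29.5, 31.0 kb from Basp1. Gm33714 (chr5:144479750-144480049, minus strand) was covered from base 15 to base 300 by a peak of score 27.9, 66.0 kb from Nptx2. Gm10858 (chr5:146897048-146897347, minus strand) was covered from base 31 to base 297 by a peak of score 23.1, 49.5 kb from Rasl11a. In all printed windows but that of Platr26 the peak spanned the start itself. Gm33596 (chr17:80809385-80809684, minus strand) was covered from base 1 to base 300 at a score of 22.2, 80.8 kb from Map4k3. Platr26 (chr2:71719167-71719466, plus strand) was covered only upstream of the start, from base 1 to base 125, by a peak of score 16.9, 67.7 kb from the integrin gene Itga6. Platr22 (chr1:136695961-136696260, plus strand) was covered from base 42 to base 300 by a peak of score 10.9, 65.8 kb from the pluripotency gene Zfp281. All scores are the authors' own and were taken as −log10 q.

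Short motifs of ES cell factors were searched in these windows on both strands. The octamer ATGCAAAT, bound by Oct4, was present in the window of Gm10858 alone, as ATTTGCAT at position 131 counted from the first base of the window, and in 1.75% of all 31396 start windows on chromosomes 1 to 19. ACAAAG, a core of Sox and Tcf/Lef sites, was found in 5 of the 6 printed windows, all but that of Gm36555, and in 18.6% of all windows. ACAATG, another Sox core, was found in the windows of Gm36555, Gm33714 and Gm33596 and in 12.2% of all windows. AAGGTCA, a site of orphan nuclear receptors such as Esrrb, and the E-box CACGTG were in none of the 6 windows and in 4.69% and 7.14% of all windows. The printed windows are all of lncRNA genes. Among lncRNA start windows alone, ATGCAAAT was in 1.87%, ACAAAG in 22.2%, ACAATG in 15.3%, AAGGTCA in 5.86% and CACGTG in 5.83%. Every match in the printed windows lay in the bases covered by the peak. This was largely set by the choice of windows, as 5 of the 6 were covered over at least 80% of their length. A match describes letters in these windows and is not shown to be a site.

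Genes for microRNAs, short RNAs that pair with messenger RNAs through a seed at bases 2 to 8, also lay near some intergenic peaks. The intergenic sequence within 10 kb of any miRNA gene held 19 peaks, which lay near 18 miRNA genes. Its density was 9.42 per Mb (5.67 to 14.7), against 4.77 per Mb in the other intergenic sequence at 10 to 100 kb from genes. Only 3 of these peaks lay within 1 kb of the miRNA gene, at 3 of the 128 miRNA genes in the range (2.34%). The share of all miRNA genes with a peak within 10 kb was not computed. The 26 mature miRNAs compared, from 17 of the 18 genes, shared no seed with each other. Shown are 3 well-known miRNAs, chosen after their values were seen, and the 3 miRNAs within 1 kb, with the seed in capitals and RefSeq sequence from GRCm38.p6.
mmu-miR-92a-3p: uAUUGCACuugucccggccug
mmu-miR-16-5p: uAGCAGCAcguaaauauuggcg
mmu-let-7d-5p: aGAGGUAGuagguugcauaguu
mmu-miR-759: gCAGAGUGcaaacaauuuugac
mmu-miR-682: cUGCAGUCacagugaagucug
mmu-miR-6380: uGUAAGUGcuuuuaacugcugagc

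The gene of mmu-miR-92a-3p, a member of an oncogenic miRNA cluster, had peaks at 2873 bp (score 2.54) and 4179 bp (score 3.51) on chromosome 14. Peaks lay 5954 bp from Mir16-1 (score 3.95), whose product restrains the cell cycle, and 7442 bp from Mirlet7d (score 7.18), of a family that promotes differentiation. All 4 of these scores were below the median of the intergenic peaks. The closest were those at Mir759 (596 bp, score 8.96), Mir682 (848 bp, score 12.7) and Mir6380 (961 bp, score 6.57).

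The width of the 2552 intergenic peaks ran from 135 to 2657 bp with a median of 207.5 bp (quartiles 167 and 263 bp). Their score ran from 1.33 to 39.9 with a median of 9.87 (quartiles 6.0 and 16.4). With no score limit, the median in the same distance range was 10.8, against 10.0 over all peaks of chromosomes 1 to 19. Their distance to the nearest protein-coding gene ran from 10.01 to 99.888 kb with a median of 32.0 kb. The same distance range held 2797 peaks, of which 245 had a score of 40 or more and were left out by the rule. Under the same limit the median score was 8.96 for peaks inside genes, 8.61 within 10 kb of genes and 9.50 beyond 100 kb.

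Peaks on both sides of each limit are given for description. The highest scores kept were 39.898 near Zfp980 and 39.735 near Slc40a1, and the lowest left out were 40.0994 near Csrp2 and 40.1077 near Bmt2. Just beyond 10 kb lay peaks near Ttf1 (10.01 kb, score 3.85) and Cox7a2 (10.03 kb, score 5.46), and just inside 10 kb lay peaks near Olfr273 (9.99 kb, score 18.5) and Etnk1 (9.982 kb, score 3.32). At the far limit, the last kept were near Zeb1 (99.888 kb, score 4.41) and Pabpc2 (99.86 kb, score 5.14), and the first left out were near Zfp648 (100.042 kb, score 8.40) and Dpp6 (100.146 kb, score 4.78).

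Outside genes, peaks below a score of 40 were sparser per length of sequence farther from genes, and the density of the intergenic peaks lay between those near genes and those far away. The sequence 10 to 100 kb from genes measured 532.8 Mb and held 4.79 peaks per Mb (4.61 to 4.98). Within 10 kb of genes the density was 7.40 per Mb (7.06 to 7.75), inside genes 4.51 per Mb (4.38 to 4.64), and beyond 100 kb 2.70 per Mb (2.58 to 2.83). Within the range, the density was 5.09 per Mb (4.72 to 5.49) at 10 to 20 kb, 5.58 at 20 to 30 kb and 5.53 at 30 to 40 kb. It was 4.08 (3.56 to 4.65) at 40 to 50 kb and 3.56 (2.94 to 4.28) at 80 to 90 kb, and beyond the range, at 100 to 150 kb, it was 3.66 per Mb. The density was thus higher up to 40 kb than from there on, with a value past 100 kb close to that before it. Score and width did not follow distance: over the bins of 10 kb the median score stayed between 9.50 and 10.2 and the median width between 202 and 215.5 bp.

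**Figure D1:**
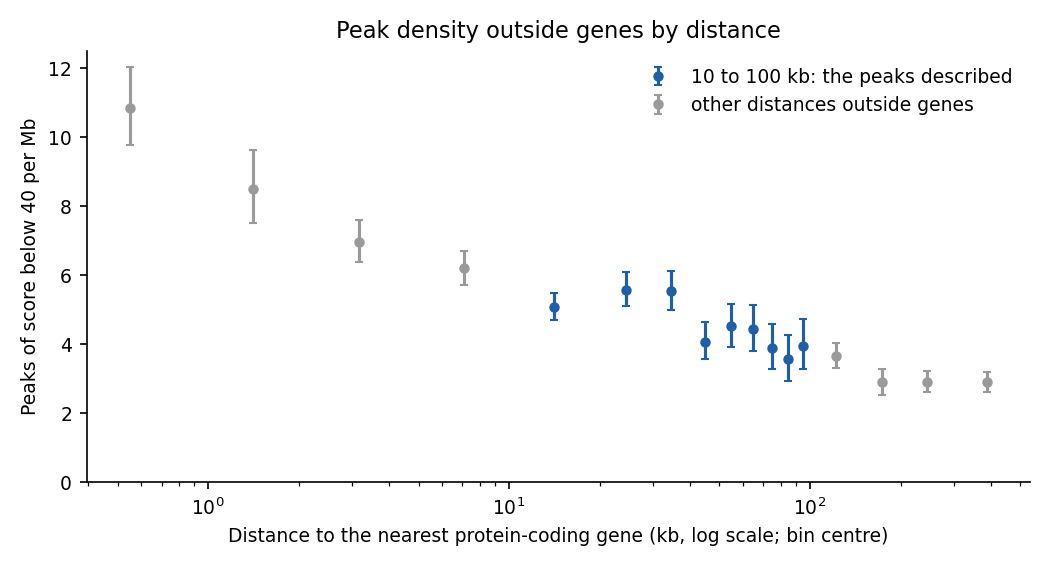
Peaks with a score below 40 per Mb of intergenic sequence (y axis) by distance to the nearest protein-coding gene (x axis, kb, log scale), with blue points for the peaks described, grey points for other distances and bars for exact 95% Poisson intervals. The blue points fall from 5.58 per Mb at 20 to 30 kb to 3.56 at 80 to 90 kb, and the grey points reach 10.9 within 1 kb of genes.

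Both sides of genes held such peaks. Of the 1967 peaks whose nearest gene had a known strand, 1091 lay upstream (4.89 per Mb, 4.60 to 5.19) and 876 downstream (4.67 per Mb, 4.36 to 4.99), with overlapping intervals. The other 585 were nearest to genes without a strand in the table used here. For 1152 peaks (45.1%) the gene on the other side of the gap was also within 100 kb, so a second gene was a near neighbour.

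The nearest genes were many and mostly met once. The 2552 peaks had 1780 nearest protein-coding genes, 8.61% of the 20665 on chromosomes 1 to 19 and 14.9% of the 11921 with any sequence in the 10 to 100 kb range. Of these genes, 1292 were nearest to 1 peak, 345 to 2, 97 to 3 and 21 to 4. Only 25 genes were nearest to 5 or more, and together these had 196 peaks.

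Genes of the pluripotency network and of the signals that act on ES cells were nearest to intergenic peaks in higher shares than the background of 14.9%, as were some lists for other cell types given further on. Of 38 core pluripotency genes with sequence in the range, 14 (36.8%) were the nearest gene of at least 1 peak, with 39 peaks in all and 14.5 peaks per Mb (10.3 to 19.9) of their surrounding sequence. None of these 39 lay in a dense region of peaks. When genes of every type were used in place of protein-coding genes, 4 of these genes were still nearest to a peak, because non-coding genes then lay closer. The list for LIF, BMP, FGF and Wnt signalling had 14 of 40 genes (35%), 28 peaks and 11.0 per Mb (7.31 to 15.9). Chromatin regulators had 6 of 23 genes (26.1%), 9 peaks and 11.7 per Mb (5.37 to 22.3), and genes of Krüppel-like factors had 8 of 14 (57.1%), 20 peaks and 14.9 per Mb (9.11 to 23.0). The lists share genes, such as Klf4 and Klf5, and were written with results of these data known. Active genes that give signal with any antibody were not measured here, and their part in these densities was not tested.

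**Figure D2:**
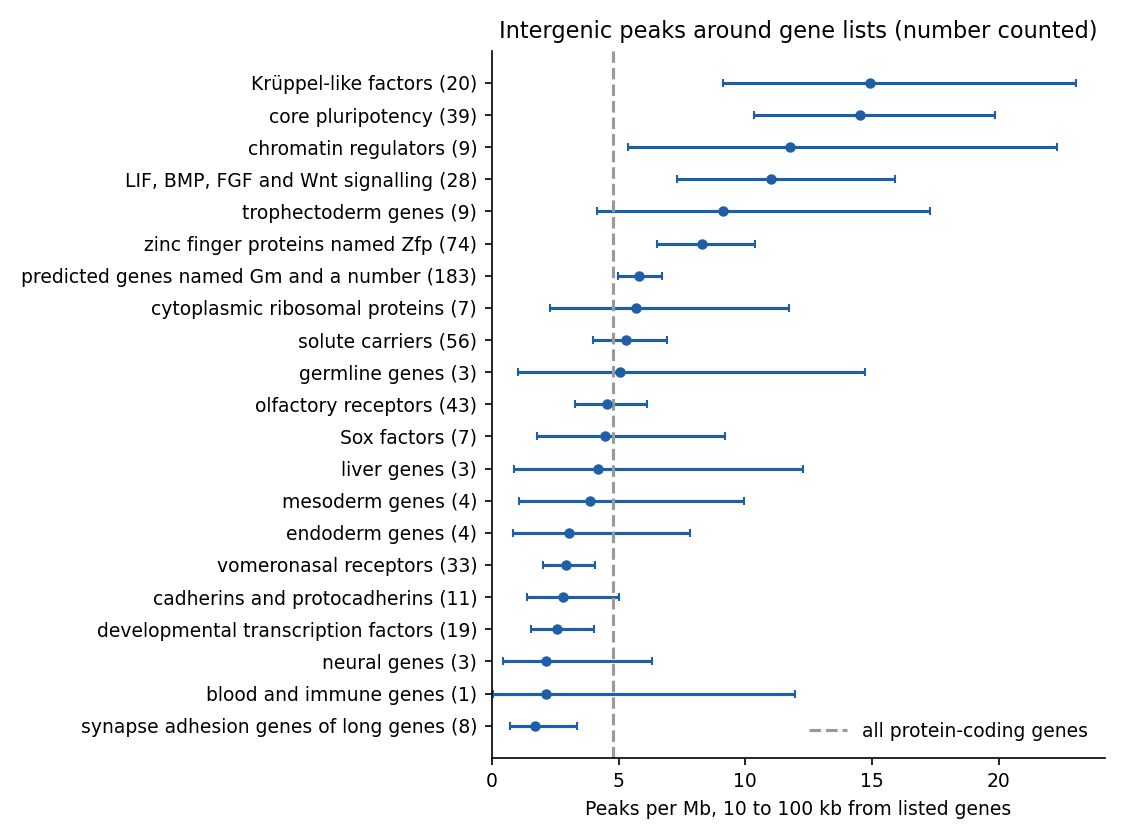
Intergenic peaks per Mb of sequence 10 to 100 kb from the genes of each list (x axis), with the number of peaks in brackets, points for densities and bars for exact 95% Poisson intervals. Krüppel-like factors (14.9 per Mb) and core pluripotency genes (14.5) stand highest and genes for synapse and adhesion proteins (1.71) lowest, against 4.79 for all protein-coding genes (dashed line).

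Zfp281, a zinc finger regulator of pluripotency on chromosome 1, had 7 intergenic peaks, the most of the core list. One lay 11.5 kb upstream at chr1:136613216-136613550 with a score of 22.6. The other 6 lay downstream at 44.4 kb (score 17.2), 44.9 kb (10.8), 59.9 kb (7.88), 64.8 kb (9.51), 65.8 kb (10.9) and 97.7 kb (22.0). The peak at 65.8 kb is the one over the start of Platr22 shown above, and the farthest was 114.5 kb from the nuclear receptor gene Nr5a2, the next protein-coding gene. Nr5a2, itself on the core list, was nearest to none of the intergenic peaks. The peaks at the outer ends of this row, at 11.5 and 97.7 kb, had the highest scores, and those between were lower.

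Klf5, a Krüppel-like factor of the naive state, had peaks on both sides: 1 at 20.02 kb toward lower coordinates (score 19.5) and 4 at 11.4 kb (33.5), 26.1 kb (5.20), 26.6 kb (29.5) and 39.9 kb (31.3) toward higher ones. Of these 5, only the 1 at 26.1 kb scored below the median of the intergenic peaks. Prdm14, a repressor needed in naive ES cells and germ cells, had all 5 of its peaks toward lower coordinates. Their scores were lower nearer to the gene, from 37.4 at 53.6 kb through 12.5 at 38.8 kb, 10.5 at 28.4 kb and 5.36 at 25.1 kb to 3.71 at 18.4 kb. Foxd3, a forkhead factor of ES cells and neural crest, had upstream peaks at 20.03 kb (8.83), 19.4 kb (10.7) and 14.2 kb (16.2) and its highest score downstream at 16.7 kb (31.7).

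Otx2, a homeobox factor of the transition to primed pluripotency, had 4 upstream peaks of like score at 33.5 kb (7.61), 42.0 kb (7.56), 62.6 kb (8.85) and 86.6 kb (10.1). All 4 lay within the span of the lncRNA gene Otx2os1 (chr14:48669288-48793348). Klf4, a factor of the naive state and of reprogramming, had 3 downstream peaks at 49.6 kb (13.1), 51.5 kb (10.7) and 63.2 kb (2.29). A peak of score 41.5 at 62.6 kb, next to the last of these, was left out by the score limit alone. Sall1, a zinc finger repressor, had 3 downstream peaks at 11.4 kb (11.7), 14.8 kb (2.15) and 23.5 kb (27.1).

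Sox2, a partner of Oct4, had 1 intergenic peak, at chr3:34745263-34745574, 93.0 kb downstream with a score of 11.3. Past the distance limit, Sox2 was also the nearest gene of peaks at 104.4 kb (7.74), 105.6 kb (17.6) and 108.9 kb (8.13), and of others far away at 481.3 kb (6.12) and 500.6 kb (13.6). Downstream sequence at about this distance from Sox2 is known for an enhancer of the gene in ES cells. Pou5f1, which encodes Oct4, had only 5.73 kb of sequence in the range and 1 peak in it, 15.5 kb upstream with a score of 16.6. Zfp42, the gene of the ES cell marker Rex1, had upstream peaks at 13.9 kb (14.7) and 24.8 kb (8.85).

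The remaining core genes with a peak had 1 each. These were the Nodal antagonist gene Lefty1 (10.2 kb, score 16.1), the FGF antagonist gene Spry4 (12.3 kb, 11.4), Mycn (41.4 kb upstream, 7.66) and Dppa2 (54.3 kb, 6.0). The other core genes were nearest to none of the intergenic peaks, though many had room for them. Among these were Nanog (28.6 kb of sequence in the range), Esrrb (91.8 kb), Tet2 (123 kb) and Tbx3 (136 kb), while 8 others such as Rif1 and Stat3 had no sequence in the range at all. Peaks inside these genes or within 10 kb of them were outside the rule and are not counted here.

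**Figure D3:**
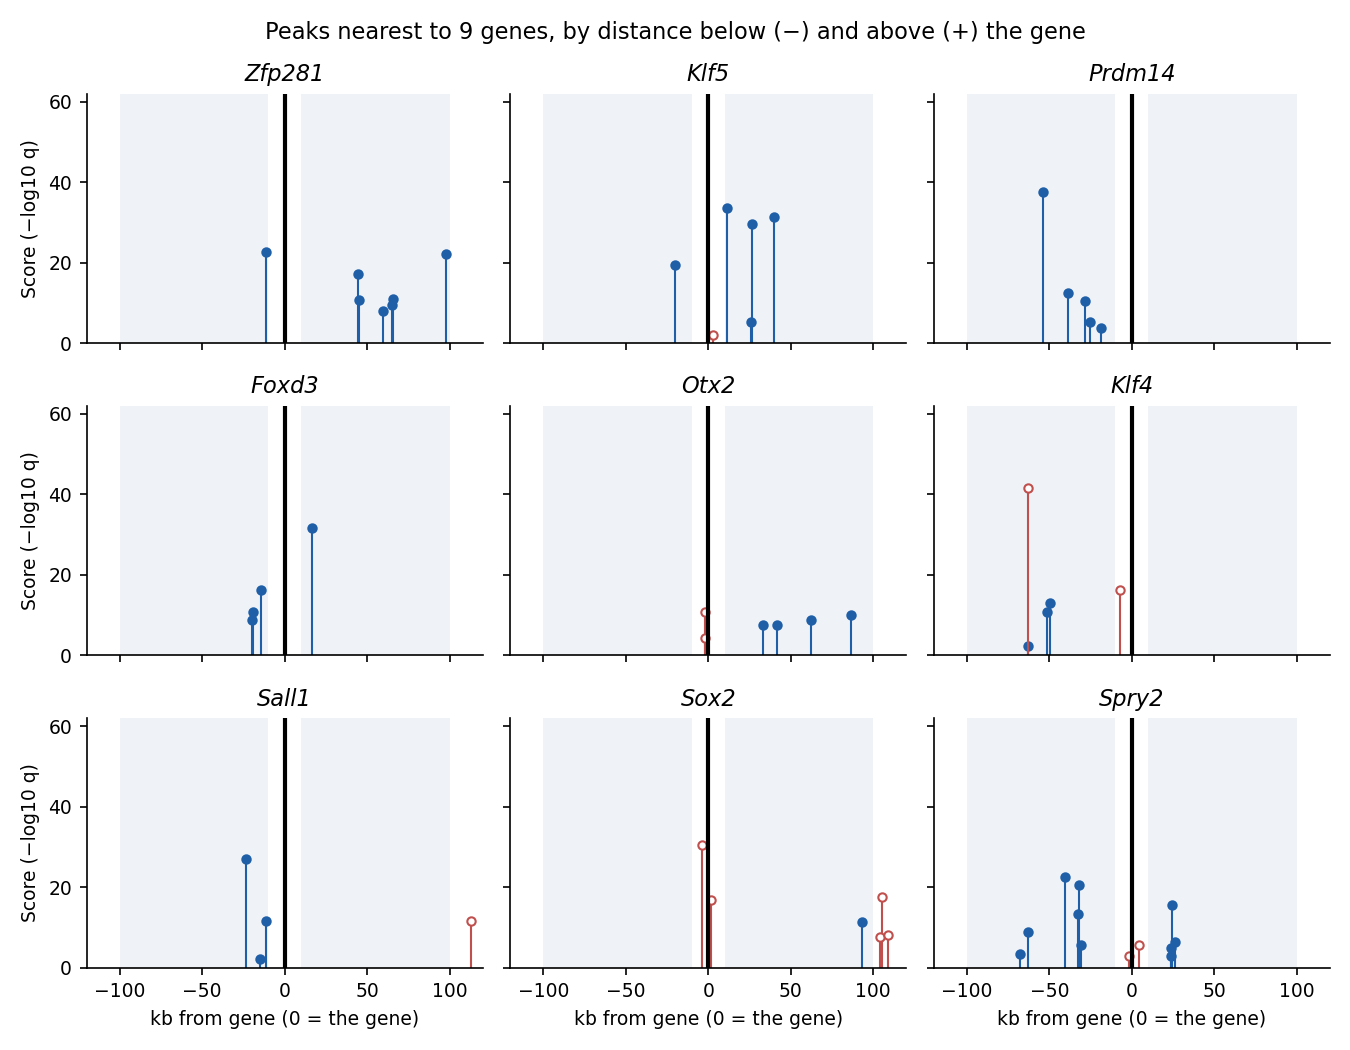
Score of each peak (y axis, −log10 q) by distance below or above its nearest gene (x axis, kb, with the gene at 0 and the 10 to 100 kb range shaded) for 9 genes. Filled blue points are the peaks described and open red points are peaks left out by score or distance, such as that of score 41.5 beside Klf4 and the 3 between 104.4 and 108.9 kb from Sox2, with distances beyond those of the axis not drawn.

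Among signalling genes, Spry2, an inhibitor of receptor tyrosine kinase signalling that FGF induces, stood first with 10 intergenic peaks. Downstream lay 6, at 30.8 kb (score 5.59), 32.0 kb (20.6), 32.7 kb (13.3), 40.3 kb (22.5), 62.8 kb (8.87) and 67.6 kb (3.50). Upstream lay 4 within a short stretch, at 23.5 kb (2.88), 23.8 kb (5.04), 24.2 kb (15.6) and 26.3 kb (6.32). The highest scores on the downstream side were thus 32.0 to 40.3 kb from the gene, and those nearest and farthest were low.

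The Wnt receptor gene Fzd7 had 3 peaks at 33.5 kb (23.2), 55.1 kb (7.90) and 58.8 kb (20.7), and the ligand gene Bmp4 had 3 at 34.1 kb (5.88), 44.6 kb (10.8) and 89.9 kb (11.9). The ERK phosphatase gene Dusp6 had 2, at 25.9 kb (8.11) and 86.2 kb (23.4). Single peaks outside the naming rule, chosen after their values were seen, lay near several other genes. Dusp4, of the same phosphatase family, had 1 with the highest score of this list (37.0, at 74.7 kb). Peaks also lay near both receptor genes of the LIF pathway, Lifr (33.6 kb, 6.39) and Il6st (23.7 kb, 6.65). They were also found at the Wnt effector gene Lef1 (25.5 kb, 15.1), the BMP inhibitor gene Smad7 (22.2 kb, 12.4) and Spry1 (12.7 kb, 19.2). Rbpj, the DNA-binding effector of Notch signalling and named for its high score, had 5 peaks, at 14.2 kb (39.0), 16.2 kb (12), 54.4 kb (14.7), 88.1 kb (3.8) and 88.4 kb (12.5). Peaks of score 49.9 at 49.9 kb and 115.6 at 88.8 kb from Rbpj were left out by the score limit.

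The chromatin regulators with intergenic peaks included 4 genes of Polycomb complexes, which repress developmental genes. Eed had 3, at 26.2 kb (score 12.9), 42.4 kb (22.3) and 44.1 kb (24.8), beside a peak of score 74.8 at 16.9 kb that was left out by its score. Suz12, a subunit of the same complex, had 1 at 12.3 kb (32.3). Outside the naming rule, and chosen after their values were seen, were the methyltransferase gene Ezh2 (13.2 kb, 7.95) and the ubiquitin ligase gene Rnf2 (15.0 kb, 6.0). The deacetylase gene Hdac2 had 2 peaks (12 and 12.7), and the remodeller gene Chd1 had 1 (24.0 kb, 14.2).

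Of the Krüppel-like genes outside the core list, Klf12 had 5 peaks of low score (5.26 to 8.35) at 15.3 to 87.4 kb. Klf7 had 2, with scores of 32.4 at 20.2 kb and 8.27 at 11.7 kb. Among genes chosen after their values were seen, Klf6 had 2 peaks with a highest score of 14.0, and single peaks lay near Klf13 (30.2), Klf10 (19.9) and Klf9 (9.94).

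Lists for other cell types and for later development varied, and their share of genes and their density could stand on different sides of the background. Developmental transcription factors had 15 of 74 genes (20.3%) nearest to a peak, and 2.59 peaks per Mb (1.56 to 4.04) of their surrounding sequence. Among them were the homeobox gene Msx1 with 3 peaks (highest score 7.74) and Sox1 and Sox11 with 2 each (highest scores 4.62 and 7.07). Synapse and adhesion genes had 8 peaks at 7 of 30 genes (23.3%) and 1.71 per Mb (0.737 to 3.36), and cadherins and protocadherins had 11 at 7 of 31 (22.6%) and 2.80 per Mb. Neural genes had 3 at 3 of 19 (15.8%) and 2.16 per Mb, and blood and immune genes 1 at 1 of 11 (9.09%) and 2.15 per Mb. Single peaks of these lists could still have a high score, as near Csmd3 (36.0 at 18.5 kb), Fstl5 (29.7 at 29.4 kb) and the oligodendrocyte factor gene Olig2 (25.6 at 44.3 kb). The blood peak lay 30.2 kb from Ptprc, the gene of the leukocyte antigen CD45 (score 8.40). Trophectoderm genes, for the outer layer of the blastocyst, had 9 peaks at 5 of 17 genes (29.4%) and 9.10 per Mb (4.16 to 17.3), both above the background. Of these, 4 lay near the placental hormone gene Prl2c2 (highest score 23.6) and 2 near Tfap2c. Mesoderm genes had 4 peaks at 4 of 15 genes (26.7%, 3.88 per Mb) and endoderm genes 4 at 3 of 18 (16.7%, 3.05 per Mb). Germline genes had 3 at 2 of 13 (15.4%, 5.04 per Mb) and liver genes 3 at 2 of 18 (11.1%, 4.20 per Mb). Examples are the mesoderm gene Eomes (71.9 kb, score 27.3), the endoderm gene Foxa2 (13.6 kb, 12.4) and the urea cycle gene Cps1 with 2 peaks (highest score 15.5). Kit, the receptor gene of germ cells, also had 2 (highest score 9.59). Cytoplasmic ribosomal protein genes had 7 peaks at 5 of 30 genes (16.7%, 5.69 per Mb), with Rpl22l1 and Rps20 at 2 each.

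Among gene families, vomeronasal receptor genes were nearest to a peak in 24 of 339 cases (7.08%) and had 2.91 peaks per Mb (2.00 to 4.09). Olfactory receptor genes were so in 39 of 753 cases (5.18%), yet per Mb of sequence around them the value was 4.56, near the background of 4.79. Genes of zinc finger proteins named Zfp had 74 peaks at 44 of 229 genes (19.2%) and 8.28 per Mb (6.5 to 10.4). Predicted genes named Gm had 183 at 82 of 597 (13.7%) and 5.80 per Mb (4.99 to 6.71). Solute carrier genes had 56 peaks (5.31 per Mb) and Sox genes 7 (4.46 per Mb).

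Of the 20 genes with the most intergenic peaks, 6 were predicted genes, and these had 84 of the 171 peaks. Gm15319 on chromosome 8 was nearest to 37 peaks in 173.1 kb of sequence, the most of any gene, with scores from 3.13 to 27.2 and a median of 6.57. On chromosome 13, LOC115488129 had 14 peaks (scores 4.13 to 24.3), Gm53057 had 11 (3.64 to 38.1), Gm46425 had 10 (2.81 to 26.8), Zfp640 had 8 (2.07 to 24.1), and 2410141K09Rik and LOC115486435 had 7 each. These 6 genes lie in 1 stretch of the chromosome, from the start of Gm53057 at position 65689605 to the end of Zfp640 at position 66680803. Orc5, a subunit of the origin recognition complex, also had 7, the chemokine receptor gene Ccr1, the orexin receptor gene Hcrtr2 and the corepressor gene Tle4 had 6 each, and Etaa1, A830018L16Rik, Gm19428 and Sfi1 had 5 each. The 5 peaks of A830018L16Rik had a median score of 29.6, above the third quartile of all intergenic peaks.

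Some of these peaks belonged to dense regions, runs of 6 or more peaks of any score or place at gaps up to 10 kb. In all, 15 dense regions held 91 of the intergenic peaks (3.57%). The region with the most peaks, at chr8:20321633-20376657, held 73, 13 of them intergenic peaks of the described class near Gm15319, and that at chr13:66291713-66322562 held 14, of which 12 were of that class. Repeated or misassembled sequence was not filtered here, and its part in these regions was not tested.

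Most intergenic peaks stood alone. With gaps up to 10 kb, 1839 (72.1%) had no other intergenic peak next to them, and 713 (27.9%) fell into 293 groups with a median span of 3.87 kb. Pairs made up 230 of the groups, 39 held 3, 9 held 4 and 15 held 5 or more, with 100 peaks in the last. The median score was 9.08 in groups and 10.0 for peaks alone, so grouped peaks were not those of higher score.

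The largest groups held 12 peaks at chr13:66299974-66322562 near LOC115488129 (scores 4.13 to 13.7) and 12 at chr8:20422315-20440335 near Gm15319 (3.32 to 12.3). Next came 8 near Gm15319, 7 at chr13:65620397-65632066 between Gm19428 and Gm53057 (3.8 to 38.1), and 6 each near Ccr1, LOC115486435, Gm46425, Tle4, Hcrtr2 and Gm15319. The group near Tle4, a Groucho corepressor, spanned chr19:14663456-14680092 at 65.4 to 81.8 kb from the gene, with scores of 4.31 to 11.9. The group of 6 near Hcrtr2 was the most compact of these, with a span of 3.97 kb.

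Compared with the other classes of peaks below 40, intergenic peaks had an intermediate share with a close neighbour of any class. Within 10 kb, 792 of 2552 (31.0%, 29.2 to 32.9%) had another peak, against 41.0% of peaks within 10 kb of genes, 29.4% inside genes and 25.9% beyond 100 kb. Another intergenic peak of the same class lay that close to 704 of them (27.6%, 25.9 to 29.4%), and a peak of score 40 or more to 91 (3.57%). The share with a neighbour of the same class was 17.8% after peaks within 1 kb of each other were merged. It was 12.9% when only peaks at or above the median score were kept, which also removed possible neighbours. The share with any neighbour was 11.4% within 1 kb, 22.7% within 5 kb, 41.9% within 20 kb and 75% within 100 kb. At 10 kb the zones had the same order in the share with any neighbour as in density, but differed less in it. Beyond 100 kb the share was 25.9% at 2.70 peaks per Mb, against 31.0% at 4.79 per Mb for the intergenic peaks. A link between share and density was not tested.

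**Figure D4:**
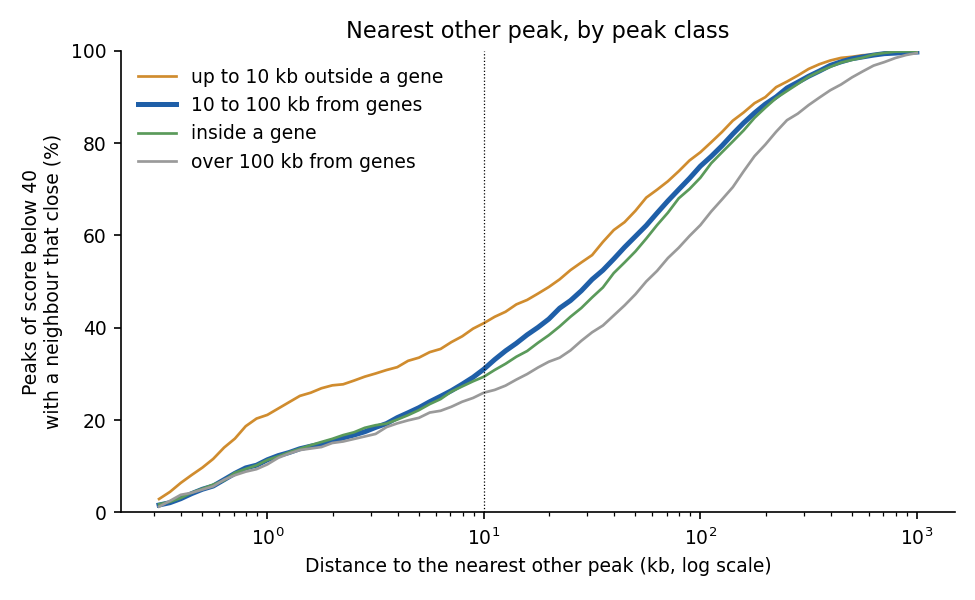
Share of peaks with a score below 40 (y axis, %) that have another peak of any kind within a given distance (x axis, kb, log scale), by place of the peak, with a dotted line at 10 kb. At 10 kb the intergenic peaks described (31.0%) lie above those inside genes (29.4%) and those beyond 100 kb (25.9%) and below those within 10 kb of genes (41.0%).

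Chromosome 13 held the most intergenic peaks for its sequence. It had 253, or 8.09 per Mb (7.13 to 9.15), and 7.01 per Mb (6.11 to 8.0) without the 34 in dense regions. Many peaks of its stretch from Gm53057 to Zfp640 lay outside dense regions and still count in the 7.01. Examples are a group of 3 at chr13:65934349-65940435 near Gm46425 and a group of 3 at chr13:66492791-66497975 near Gm46427. A value without the whole stretch was not computed, so an excess over the rest of the chromosome is not shown. Chromosome 1 followed with 246 and 5.99 per Mb (5.27 to 6.79). Chromosome 8 had 150 and 5.79 per Mb, which became 4.59 without the 31 in dense regions, and chromosome 7 was lowest with 118 and 3.19 per Mb (2.64 to 3.82). The other chromosomes lay between 3.83 and 5.29 per Mb.

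**Figure D5:**
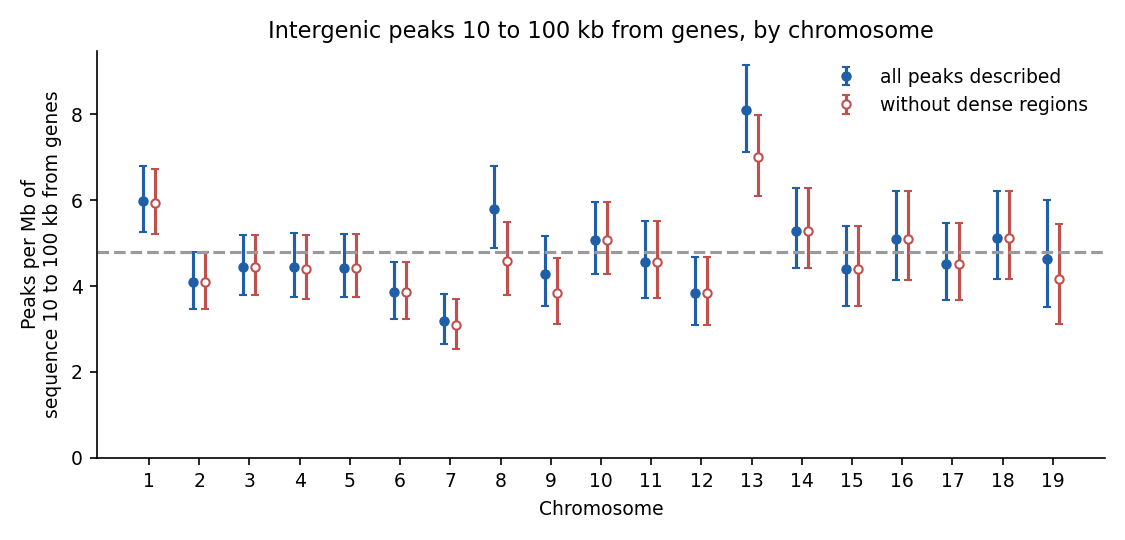
Intergenic peaks per Mb of sequence 10 to 100 kb from genes (y axis) for chromosomes 1 to 19 (x axis), for all peaks described (filled) and without dense regions (open), with exact 95% Poisson intervals and a dashed line at 4.79 for all. Chromosome 13 is highest at 8.09 and 7.01 per Mb, and chromosome 8 moves from 5.79 to 4.59. The open point of chromosome 13 still counts peaks of its stretch from Gm53057 to Zfp640 that lay outside dense regions.

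Transfer RNA genes, which RNA polymerase III transcribes, had intergenic peaks close beside them. Within 1 kb of a tRNA gene lay 19 peaks, or 71 per Mb (42.7 to 110.8) against 4.76 per Mb in the rest of the range. Of the 165 tRNA genes in the range, 27 (16.4%) had a peak midpoint within 1 kb. The midpoints were not over the tRNA genes: none lay under 100 bp away, 11 lay at 100 to 200 bp and 5 at 200 to 300 bp, with a median of 193 bp and extremes of 145 and 842 bp. Their scores ran from 1.43 to 20.4 with a median of 6.22, lower than that of all intergenic peaks, and 11 of the 19 lay on chromosome 13. Examples chosen after their values were seen are n-TVcac10 (208 bp, score 20.4), n-TIaat10 (201 bp, 12.8) and n-TKctt30 (195 bp, 11.9). Which reads were kept at repeated sequence is not given in the sources used here, and its part in this gap was not tested.

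Small nuclear RNA genes had 9 peaks within 500 bp, or 31.6 per Mb (14.4 to 59.9) against 4.78 in the rest of the range. Within 1 kb there were also 9, at 16.7 per Mb (7.62 to 31.6). One of the 9, chosen after its values were seen, lay 163 bp from Rnu5g, a gene of the U5 spliceosomal RNA, with a score of 3.49. Small nucleolar RNA genes had 1 peak within 500 bp (3.13 per Mb, 0.0792 to 17.4) and 5 within 1 kb (8.45 per Mb, 2.74 to 19.7). Inside lncRNA genes the density was near that elsewhere. There lay 386 of the intergenic peaks (15.1%), at 5.11 per Mb (4.61 to 5.64) against 4.74 in the rest of the range. Within 10 kb of lncRNA genes it was higher, at 5.50 per Mb (5.11 to 5.90) against 4.54. Pseudogenes held 57, at 4.05 per Mb (3.06 to 5.24) against 4.81, and within 10 kb of them the density was 5.42 (4.91 to 5.97) against 4.69. Distance windows differ between the gene types given here, so their densities cannot be set side by side. Of all 12408 lncRNA genes, 367 (2.96%) had an intergenic peak inside or within 1 kb, and of the 4341 whose midpoint lay in the range 350 did (8.06%). Of 16 Platr genes, looked at after the values were seen, 4 had one (25%). These were Platr22 (score 10.9) and Platr26 (16.9), shown above, and Platr6 (15.7) and Platr11 (27.3), where the peak lay inside the gene.

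The intergenic peaks with the highest scores stood near genes of varied roles. After that near Zfp980 (73.4 kb) came peaks near the iron exporter gene Slc40a1, the lipid flippase gene Atp8b4 and the pheromone receptor gene Vmn2r79, each with a score of 39.7. Peaks near Mroh9, the homeobox gene Nkx1-1 and Trim24, a bromodomain cofactor, each scored 39.2. That near Rbpj scored 39.0, and those near Akr1c21, of the aldo-keto reductases, and Alg10b, a glucosyltransferase gene, scored 38.9.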

How the data were processed

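ChIP-Seq peaks of 1 TOBF1 library were analysed. No file of the input library was used. The submitters' processing notes name the tools MACS2, Bowtie2, bedtools and cutadapt and the build mm10, without versions, order or settings. Whether the peak call used the input as its control is not given in the sources used here. Each deposited peak has a position, a name and a score. From its range, the authors' score was taken to be −log10 of a q-value, and it served only to describe and filter peaks of this list. Depth is unknown.

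Gene positions and types came from a RefSeq table of GRCm38.p6. Strand, known for 16457 of 20665 protein-coding genes, came from RefSeq start windows. Distances ran from the peak midpoint to the nearest gene end. Densities are counts per Mb of sequence at the same distance. Intervals are exact 95% intervals, Poisson for densities and Clopper-Pearson for shares. With 1 library no test was made. The intergenic peaks, the 21 gene lists (3794 of 3806 entries matched) and the rules were chosen with earlier results of these data known.

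Named genes were the 20 with the most intergenic peaks, those of the 10 highest scores and the 10 largest groups, core genes with a peak, up to 4 genes for each other list and those at the limits. Some genes that this rule takes are given only in counts, and exceptions are marked. Peak sequences were planned but no genome of this build was used, so start windows of lncRNA genes are shown, a choice made after it was seen which peaks overlapped them. Alternatives changed the peak position, gene types, score and distance limits, merging, dense regions and window. The scripts were tested on simulated data. Tables were made with pandas 2.3.3 and NumPy 2.4.6 in Python 3.11.15, intervals with SciPy 1.17.1 and plots with matplotlib 3.10.9.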

Additional observations from a re-analysis of the deposited data

Results flagged for a closer look

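Chromosome X lay outside the chromosomes of the rule, yet 109 of its 448 peaks met the score and distance limits. They gave 2.07 peaks per Mb (exact 95% interval 1.70 to 2.49) in 52.7 Mb of intergenic sequence 10 to 100 kb from genes, against 4.79 per Mb on chromosomes 1 to 19. With no file of the input library used here, the level in a control could not be set beside these values, and the difference was not tested.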

How the results depend on the processing

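Of 67 alternatives, 43 stayed within the counting interval or 1.5 times of the value reported and 24 moved. With only peaks at or above the median score, there were 1251 intergenic peaks at 2.35 per Mb with 1045 nearest genes and a median score of 16.5, and 12.9% had another of their class and 16.4% any peak within 10 kb. With genes of every type, 4 core pluripotency genes were nearest to a peak, the density was 3.58 per Mb, and the shares were 24.1% and 28.0%. Merging peaks within 1 kb gave 4.41 per Mb, a median score of 10.2 and shares of 17.8% and 21.3%. Without dense regions the shares were 25% and 28.5%. Without the score limit the density was 5.25 per Mb and the median score 10.8. Up to 200 kb the density was 4.37 per Mb and the share with any peak 29.1%. A window of 5 kb gave 20.8% and 22.7%, and one of 20 kb gave 36.0% and 41.9%. No paired analysis was possible because 1 library was analysed. With unknown depth, genes without a peak cannot be told apart from genes with a signal under the threshold.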
